A study of Homo sapiens with 10 samples.

Results

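The P2X receptors are ion channels that extracellular ATP opens, and the human family has 7 genes, P2RX1 to P2RX7. They were taken by symbol, and all 7 were among the 30357 named genes of the series. Their levels were read in 10 bulk RNA-seq libraries of cultures grown from RUES2, a human embryonic stem cell line in wide use, edited to carry a tdTomato reporter at AVIL (AVIL:tdT). All cultures shared that line and that edit and were harvested at day 60 in vitro. They differed in the differentiation protocol, which was meant to steer neurons to a proprioceptor (3 libraries), a low-threshold mechanoreceptor (3 libraries) or a nociceptor phenotype (4 libraries). The labels call the libraries biological replicates and name neither separate differentiations, separate clones nor a sort for the reporter, so p-values measure only the spread between these libraries, which may be technical.

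A P2X channel is an assembly of 3 subunits, of the same or of different genes, and it passes cations when ATP binds. P2X3, alone or together with P2X2, is the form best known from sensory ganglia, where it carries ATP-evoked excitation in nociceptors and in visceral afferents. P2X4 and P2X7 are best known from microglia and macrophages, and P2X7 is also described in Schwann cells and satellite glia.

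The libraries held 27891186 to 44541262 counts over named genes, and a count of 3 corresponded to 0.0674 to 0.108 CPM, counts scaled to library size. Sensory neuron genes were present in every library, with PRPH, the filament peripherin, at 366 to 1259.7 TPM, ISL1 at 104 to 417 TPM and AVIL at 1.17 to 3.55 TPM (TPM, a level corrected for transcript length and scaled to the same total in each library). Schwann and satellite glia genes ran from 7.63 to 4712 TPM in sum, and 5 libraries held most of them: proprioceptor library 2, mechanoreceptor library 3 and nociceptor libraries 1 to 3. The glia level was the mean log2 CPM of the 10 genes, from this list of 11, that passed the filter on low counts. It was 5.41 in proprioceptor library 2, 5.13 in mechanoreceptor library 3 and 5.77 to 6.32 in those 3 nociceptor libraries. In the other 5 it was 3.80 or less. Autonomic neuron genes were lowest in proprioceptor library 3 and nociceptor libraries 1 and 4. In bulk samples, fewer cells of a type and less RNA per cell cannot be told apart.

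The sequence at which the P2RX5 transcripts part is printed because P2RX5-210, the transcript with its own junction there, held 46.0% of the P2RX5 transcript TPM. Letters come from the GENCODE 29 transcripts (GRCh38, chromosome 17, minus strand). In P2RX5-201 the capitals mark the tenth exon, chr17:3681896-3681978, and in P2RX5-210 they mark 4 letters on either side of the junction that lacks it.

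P2RX5-201: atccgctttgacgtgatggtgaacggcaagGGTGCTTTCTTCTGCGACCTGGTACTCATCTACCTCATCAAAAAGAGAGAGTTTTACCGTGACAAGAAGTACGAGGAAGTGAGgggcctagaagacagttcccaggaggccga

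P2RX5-210: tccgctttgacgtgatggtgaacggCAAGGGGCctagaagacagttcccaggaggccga

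P2RX3 was the most abundant P2X gene in every library and averaged 247 ± 215 TPM under the proprioceptor, 365 ± 125 TPM under the mechanoreceptor and 179 ± 158 TPM under the nociceptor protocol (SD, n = 3, 3 and 4). P2RX5 came next in mean level, P2RX4 and P2RX7 were intermediate, P2RX6 and P2RX2 were low, and P2RX1 was at the limit of detection. The spread between libraries of 1 protocol was wide. Over the 10 libraries the highest level was 8.96 times the lowest for P2RX3, 4.95 times for P2RX4, 4.72 times for P2RX5, 7.11 times for P2RX6 and 42.5 times for P2RX7.

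No P2X gene passed the test in any comparison. Of the 6 P2X genes that passed the filter on low counts, 0 were called between proprioceptor and nociceptor libraries by edgeR's quasi-likelihood test at an adjusted p under 0.05, where 0% of all 16130 genes were called. The same count was 0 of 6 between mechanoreceptor and nociceptor libraries (0% of all genes) and 0 of 6 between proprioceptor and mechanoreceptor libraries (0% of all genes). At an unadjusted p under 0.05 the counts were 0 of 6 each time, beside 6.19%, 8.18% and 1.49% of all genes. With replicate number as a block, edgeR on mechanoreceptor and nociceptor libraries 1 to 3 alone again called 0 of 6 (0% of all genes), while P2RX3, P2RX4, P2RX5 and P2RX7 had an unadjusted p under 0.05, beside 29.7% of all genes. DESeq2 called 0 of 6 each time as well, beside 0.193%, 0.859% and 0% of the genes it tested. The edgeR test over all 3 protocols at once called 0 of 6 (0% of all genes, 5.73% at an unadjusted p under 0.05), while DESeq2 called 0 of 6 and 0.492% of genes. The TPM ranges of 0 of the 7 genes were apart between any pair of protocols, beside 2.55%, 7.41% and 5.03% of all genes with reads.

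**Figure D1:**
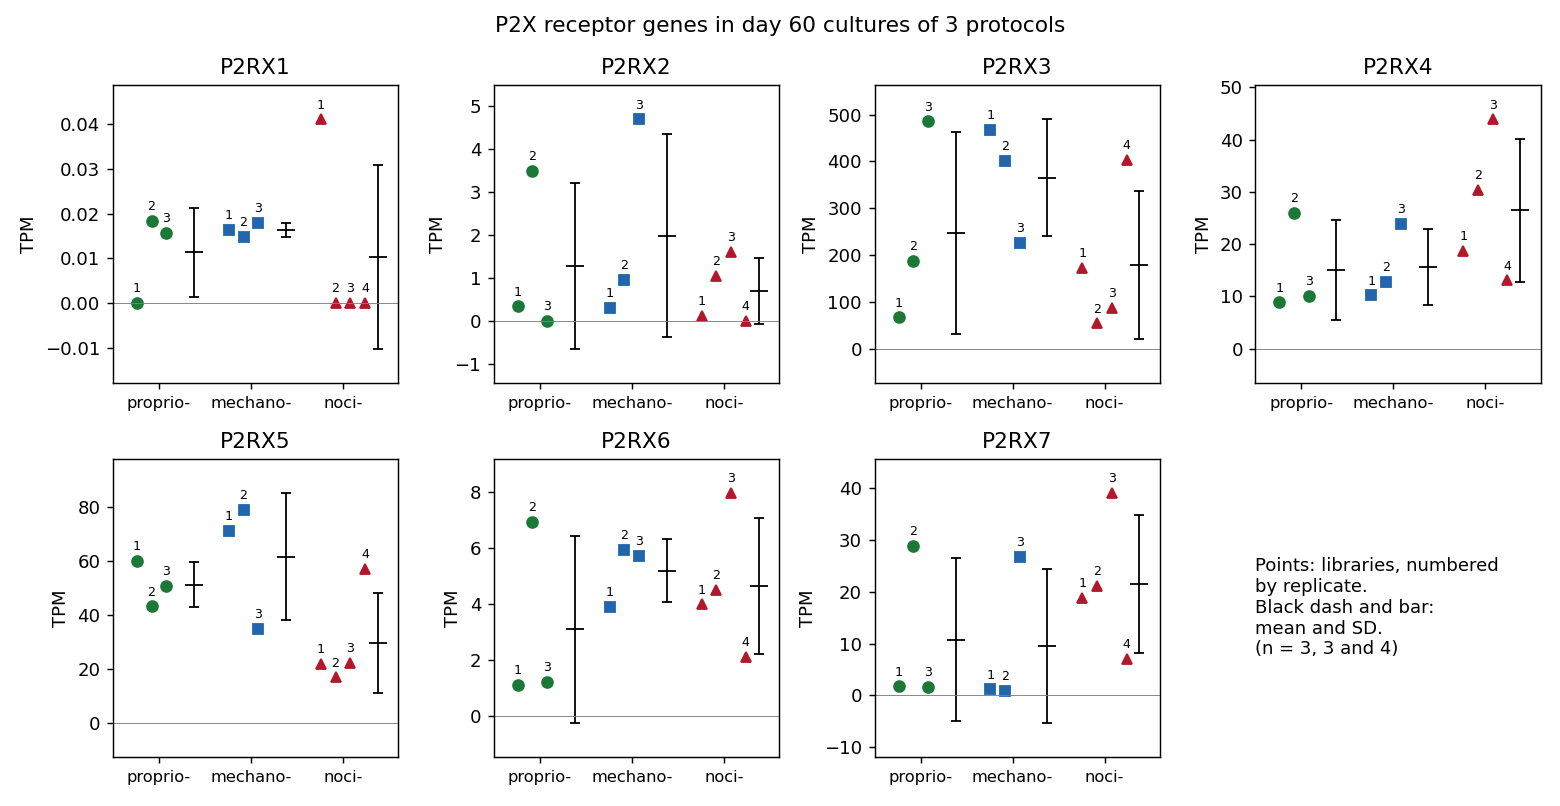
Level of each P2X gene (TPM, linear axis, 1 panel a gene) in the proprioceptor, mechanoreceptor and nociceptor libraries, with each point a library numbered by replicate and the black dash and bar giving the mean and SD (n = 3, 3 and 4). The ranges of the 3 protocols overlap in every panel, and proprioceptor library 2 and mechanoreceptor library 3 lie far above the other libraries of their protocols for P2RX2 and P2RX7.

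P2RX3 encodes the subunit that carries ATP responses of nociceptors, and its span on chromosome 11 of GRCh38.p14 is 57335950 to 57372396. It was at 67.1, 188 and 486 TPM in proprioceptor libraries 1 to 3, at 468, 402 and 227 TPM in mechanoreceptor libraries 1 to 3 and at 173, 54.2, 86.5 and 404 TPM in nociceptor libraries 1 to 4. The 4 highest libraries, proprioceptor 3, mechanoreceptor 1, nociceptor 4 and mechanoreceptor 2, came from all 3 protocols, and so did the 6 lowest. Within a library it ranked between 292 and 2994 among all named genes by TPM. Its log2 fold change was 0.49 ± 0.66 (SE) between proprioceptor and nociceptor libraries, with a 95% interval of -0.97 to 1.94 (edgeR adjusted p = 0.812). Between mechanoreceptor and nociceptor libraries it was 0.93 ± 0.66, with an interval of -0.52 to 2.38 (edgeR adjusted p = 0.670). Between proprioceptor and mechanoreceptor libraries it was -0.44 ± 0.71, with an interval of -2.01 to 1.12. No difference between protocols passed the test. The mechanoreceptor against nociceptor value stayed above 0 in every setting, at 0.64 to 1.70 with 1 library left out and 0.22 to 1.81 otherwise. Among libraries 1 to 3, each mechanoreceptor library was above the nociceptor library of its number. Nociceptor library 4, at 404 TPM, was above mechanoreceptor libraries 2 and 3. Without proprioceptor library 3 the proprioceptor against nociceptor value turned to -0.37, and once the mesenchyme level was added to the fit it was -0.11. P2RX3-201, the coding transcript, held 98.9% to 99.9% of the gene's TPM.

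P2RX2 encodes the subunit that joins P2X3 in heteromeric channels, and it was far lower. It was at 0.336, 3.50 and 0 TPM in proprioceptor libraries 1 to 3, at 0.297, 0.960 and 4.70 TPM in mechanoreceptor libraries 1 to 3 and at 0.105, 1.06, 1.62 and 0 TPM in nociceptor libraries 1 to 4. Those levels rest on 12, 108 and 0 counts, on 7, 43 and 148 counts and on 4, 44, 46 and 0 counts. The 2 libraries with no count, proprioceptor 3 and nociceptor 4, were among the 3 highest for P2RX3, and a count of 0 there allows up to 0.0803 and 0.108 CPM. In the libraries with P2RX2 counts, the log2 ratio of P2RX3 to P2RX2 TPM was 7.64 and 5.74 for the proprioceptor protocol (replicates 1 and 2), 10.6, 8.71 and 5.59 for the mechanoreceptor protocol and 10.7, 5.68 and 5.74 for the nociceptor protocol (replicates 1 to 3 each). The ratio is given as a description, since the other 2 libraries have none. An exact permutation test across protocols, with a floor in place of the zeros of those 2, gave p = 0.98 over 4200 groupings. That p-value rests on the floor. For P2RX2 the log2 fold change was 0.75 ± 1.58 between proprioceptor and nociceptor libraries and 1.38 ± 1.57 between mechanoreceptor and nociceptor libraries (edgeR adjusted p = 0.888 and 0.798). These turned to -1.49 without proprioceptor library 2 and to -0.24 without mechanoreceptor library 3, the libraries with most P2RX2.

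P2RX2 was lowest where autonomic neuron genes were lowest. The autonomic level, a mean log2 CPM over 10 genes, was 3.82, 3.74 and -0.70 for the proprioceptor protocol, 2.03, 3.70 and 4.37 for the mechanoreceptor protocol and 0.10, 4.74, 3.35 and -1.46 for the nociceptor protocol, by replicate number. Summed TPM of the list ran from 33.5 to 458 in proprioceptor, from 164 to 798 in mechanoreceptor and from 29.7 to 494 in nociceptor libraries. At higher autonomic levels the order differed. Proprioceptor library 1, at 3.82, had 0.336 TPM of P2RX2 and nociceptor library 2, at 4.74, had 1.06 TPM, against 4.70 TPM in mechanoreceptor library 3, at 4.37. The libraries highest for P2RX2, mechanoreceptor 3, proprioceptor 2 and nociceptor 3 and 2, were among those with the highest glia level. Nociceptor library 1, also among them with a glia level of 6.13, had 0.105 TPM of P2RX2. The part of autonomic neurons or of glia in the P2RX2 values was not tested.

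P2RX5 encodes a P2X subunit, and the gene lies on chromosome 17 at 3673227 to 3723835. Its level was 60.0, 43.2 and 50.7 TPM in proprioceptor libraries 1 to 3, 71.1, 79.0 and 34.7 TPM in mechanoreceptor libraries 1 to 3 and 21.7, 16.8, 22.2 and 57.2 TPM in nociceptor libraries 1 to 4. Nociceptor library 4 stood at the level of the proprioceptor and mechanoreceptor libraries, and the other 3 nociceptor libraries were the 3 lowest of all. The log2 fold change was 0.93 ± 0.42 between proprioceptor and nociceptor libraries, with a 95% interval of -0.01 to 1.87 (edgeR adjusted p = 0.665). Between mechanoreceptor and nociceptor libraries it was 0.76 ± 0.42, with an interval of -0.17 to 1.70 (edgeR adjusted p = 0.624). Neither difference passed the test, and both depended on single libraries. Between proprioceptor and nociceptor libraries the value was 0.39 without proprioceptor library 1, and between mechanoreceptor and nociceptor libraries it was 0.45 without mechanoreceptor library 2 and 1.15 without nociceptor library 4. Pan-neuronal genes were lowest in the same 3 nociceptor libraries, at a mean log2 CPM of 8.10 to 8.40, against 9.40 in nociceptor library 4, 8.75 to 9.62 in proprioceptor libraries and 8.72 to 9.30 in mechanoreceptor libraries. The part of the neuronal share in the P2RX5 values was not tested.

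Inside P2RX5 the estimated level of 1 transcript spread more widely than the sum of those that include the tenth exon. P2RX5-210, annotated as a target of nonsense-mediated decay, held 46.0% of the P2RX5 transcript TPM over all libraries. TPM gives a short transcript such as P2RX5-210 (851 bases, beside 2309 for P2RX5-201) more weight than counts do. In counts it held 705 of 1885 in mechanoreceptor library 1 and 36 of 720 in nociceptor library 2. Those libraries had its highest and lowest share of TPM. P2RX5-210 was the single annotated transcript that spans the tenth exon of P2RX5-201 without it, while 7 of the 11 transcripts include that exon, whose 83 bases leave a remainder of 2 when divided by 3. P2RX5-210 was at 33.0, 17.3 and 24.4 TPM in proprioceptor libraries 1 to 3, at 42.9, 40.4 and 9.25 TPM in mechanoreceptor libraries 1 to 3 and at 4.46, 2.00, 7.22 and 28.7 TPM in nociceptor libraries 1 to 4. The 7 transcripts with the exon summed to 26.5, 25.8 and 25.8 TPM, to 27.2, 37.6 and 24.8 TPM and to 16.96, 14.5, 14.9 and 27.6 TPM in the same libraries. The highest level over the 10 libraries was thus 21.5 times the lowest without the exon and 2.59 times with it. The share of TPM without the exon was 48.1 ± 7.71% in proprioceptor, 46.7 ± 17.6% in mechanoreceptor and 29.1 ± 16.8% in nociceptor libraries (SD), and the ranges overlapped. It is given as a description with no test: all 851 bases of P2RX5-210 lie inside exons of P2RX5-201, so that only the junction printed above is its own and the split is the estimate of the quantification. The readthrough gene P2RX5-TAX1BP3, whose reads cannot be cleanly parted from those of P2RX5, was at 0.678 to 1.51 TPM.

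**Figure D2:**
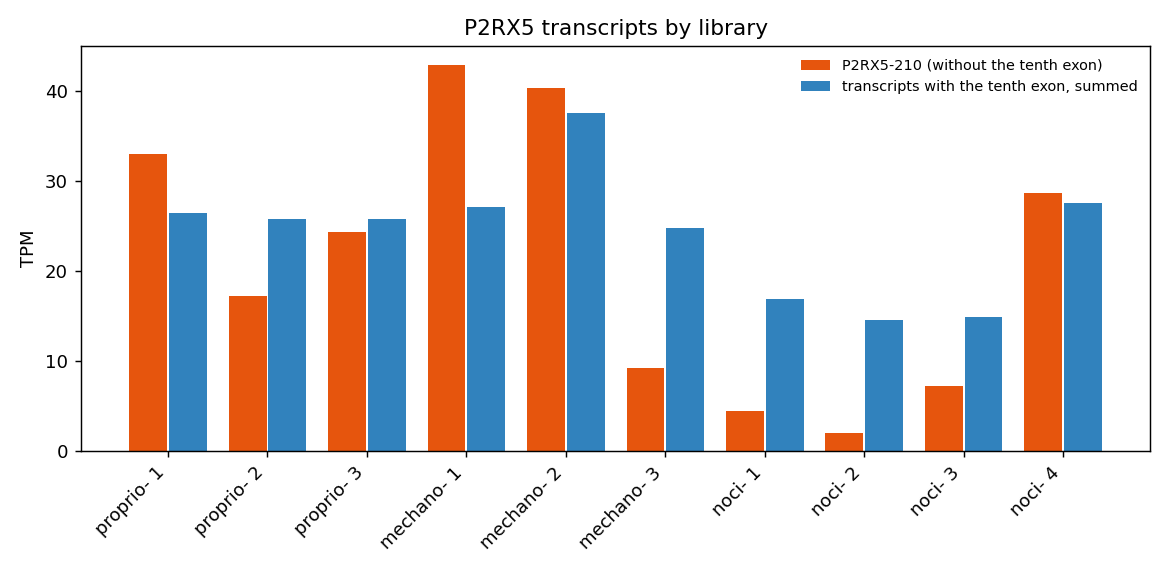
TPM of P2RX5-210, which lacks the tenth exon of P2RX5-201 (orange), and summed TPM of the 7 P2RX5 transcripts that include it (blue), 1 pair of bars a library, with no error bars. The orange bars run from 2.00 to 42.9 TPM and the blue bars from 14.5 to 37.6 TPM, with low orange bars in mechanoreceptor library 3 and nociceptor libraries 1 to 3.

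P2RX7 encodes the subunit that responds to high ATP and, in macrophages, drives inflammasome activation. It was at 1.74, 28.9 and 1.57 TPM in proprioceptor libraries 1 to 3, at 1.15, 0.919 and 26.7 TPM in mechanoreceptor libraries 1 to 3 and at 18.8, 21.2, 39.0 and 6.995 TPM in nociceptor libraries 1 to 4. The 5 libraries above 18 TPM were the 5 with the highest glia level, and they came from all 3 protocols. The log2 fold change was -1.26 ± 1.35 between proprioceptor and nociceptor libraries, with an interval of -4.24 to 1.72 (edgeR adjusted p = 0.759). Between mechanoreceptor and nociceptor libraries it was -1.42 ± 1.36, with an interval of -4.42 to 1.58 (edgeR adjusted p = 0.749). Neither difference exceeded the spread, and single libraries moved it strongly. Without mechanoreceptor library 3 the mechanoreceptor against nociceptor value was -5.11 (edgeR adjusted p = 0.193), and without proprioceptor library 2 the proprioceptor against nociceptor value was -3.80. The single transcript annotated as coding, P2RX7-202, held 9.50% to 39.4% of the P2RX7 TPM of a library, and 11 transcripts annotated for nonsense-mediated decay held 56.1% to 90.5%. This split is the estimate of the quantification, and TPM gives a long transcript such as P2RX7-202 (5161 bases) less weight than counts do. In counts it held 12 of 41 in mechanoreceptor library 2 and 1076 of 1805 in nociceptor library 1. Those libraries had its lowest and highest share of TPM.

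P2RX4, the neighbour of P2RX7 on chromosome 12, encodes a channel of microglia and of endosomes and lysosomes. It was at 8.86, 26.0 and 10.2 TPM in proprioceptor libraries 1 to 3, at 10.2, 12.9 and 23.8 TPM in mechanoreceptor libraries 1 to 3 and at 18.6, 30.4, 43.9 and 13.1 TPM in nociceptor libraries 1 to 4. The same 5 libraries were highest as for P2RX7, over a narrower range. The log2 fold change was -0.85 ± 0.55 between proprioceptor and nociceptor libraries, with an interval of -2.05 to 0.36 (edgeR adjusted p = 0.666). Between mechanoreceptor and nociceptor libraries it was -1.005 ± 0.55, with an interval of -2.22 to 0.21 (edgeR adjusted p = 0.619). Neither difference passed the test. Between proprioceptor and nociceptor libraries the value was -1.31 without proprioceptor library 2 and -0.47 without nociceptor library 3. Between mechanoreceptor and nociceptor libraries it was -1.59 without mechanoreceptor library 3 and -0.63 without nociceptor library 3. P2RX4-202, a coding transcript, held 44.2% to 85.3% of the gene's TPM.

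Beside P2RX4 and P2RX7, the marker lists of non-neuronal cells moved with the libraries. The glia level was 2.05, 5.41 and 1.21 for the proprioceptor protocol, 0.48, -1.18 and 5.13 for the mechanoreceptor protocol and 6.13, 5.77, 6.32 and 3.80 for the nociceptor protocol, by replicate number. The fibroblast and mesenchyme level was 0.79, 4.28 and 0.68, then 0.15, 0.29 and 4.24, then 5.22, 5.003, 4.81 and 1.85 in the same libraries. Both lists were highest in the same 5 libraries. All 10 tested glia genes lay below 0 between proprioceptor and nociceptor libraries (median log2 fold change -1.73) and between mechanoreceptor and nociceptor libraries (median -2.29), while the median of all genes was 0.03 and 0.00. S100B, the most abundant glia gene, ran from 3.12 to 2295 TPM, and the collagen genes COL1A2 and COL1A1 from 2.05 to 1510.0 TPM and from 1.77 to 1984 TPM. SOX10, a transcription factor of Schwann cells and satellite glia, was at 1.33, 24.6 and 0.898 TPM in proprioceptor, at 0.732, 0.0136 and 17.7 TPM in mechanoreceptor and at 34.2, 35.9, 48.2 and 7.91 TPM in nociceptor libraries. Of 10 macrophage and microglia genes, 7 were below 1 TPM in every library, among them AIF1, CX3CR1, TYROBP and C1QA, and CD68 had the highest mean, 2.75 TPM. The rest of the list, CD68, CSF1R and PTPRC, reached 8.15, 1.49 and 1.25 TPM in their highest libraries. With the mesenchyme level in the fit, the log2 fold change was -0.10 for P2RX4 and 0.056 for P2RX7 between proprioceptor and nociceptor libraries, and -0.19 for P2RX4 and -0.36 for P2RX7 between mechanoreceptor and nociceptor libraries. The part of glia in the P2RX4 and P2RX7 values was not tested.

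**Figure D3:**
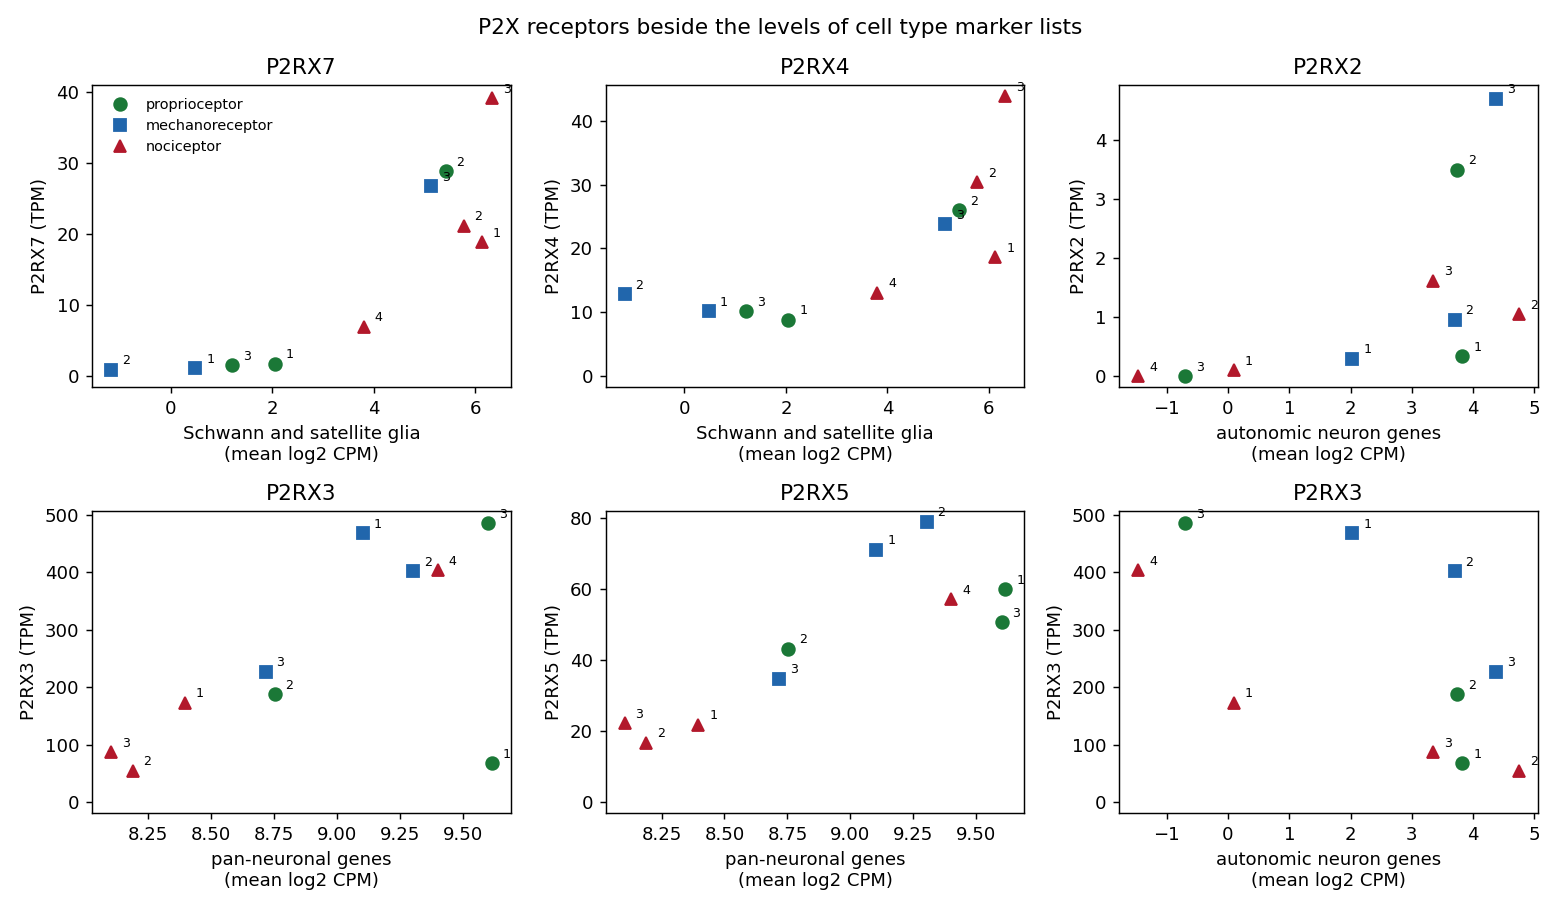
TPM of 5 P2X genes (vertical, linear) against the level of a marker list (horizontal, mean log2 CPM), each point a library marked by protocol and numbered by replicate, with P2RX3 shown against 2 lists. P2RX7 is above 18 TPM in the 5 libraries with a glia level above 5 and below 8 TPM in the other 5, and P2RX2 is near 0 at the lowest autonomic levels.

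P2RX6, whose subunit forms few channels on its own and joins P2X2 or P2X4, was low. It was at 1.12, 6.95 and 1.22 TPM in proprioceptor libraries 1 to 3, at 3.89, 5.95 and 5.73 TPM in mechanoreceptor libraries 1 to 3 and at 3.99, 4.51, 7.97 and 2.12 TPM in nociceptor libraries 1 to 4. Proprioceptor library 2 was the second highest of the 10 and the other 2 proprioceptor libraries were the lowest, so the ranges overlapped. Its log2 fold change was -0.83 ± 0.61 between proprioceptor and nociceptor libraries (edgeR adjusted p = 0.680) and -0.35 ± 0.60 between mechanoreceptor and nociceptor libraries (edgeR adjusted p = 0.875). The pseudogene P2RX6P was listed at 0 to 4.05 TPM, so the split of reads between it and P2RX6 is uncertain. P2RX1, a channel of platelets and smooth muscle, had 0 or 1 counts in 9 libraries and 3 counts in nociceptor library 1, and no fold change is given.

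Between proprioceptor and mechanoreceptor libraries the log2 fold changes of the 6 tested genes were small or imprecise. They were -0.63 ± 1.68 for P2RX2, 0.16 ± 0.57 for P2RX4, 0.16 ± 0.46 for P2RX5, -0.48 ± 0.64 for P2RX6 and 0.16 ± 1.40 for P2RX7. The intervals allow a difference of either sign for each gene, from -0.84 to 1.17 for P2RX5 and from -2.93 to 3.24 for P2RX7. Without mechanoreceptor library 3 the value of P2RX2 was 0.99, and without proprioceptor library 2 that of P2RX7 was -2.35.

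**Figure D4:**
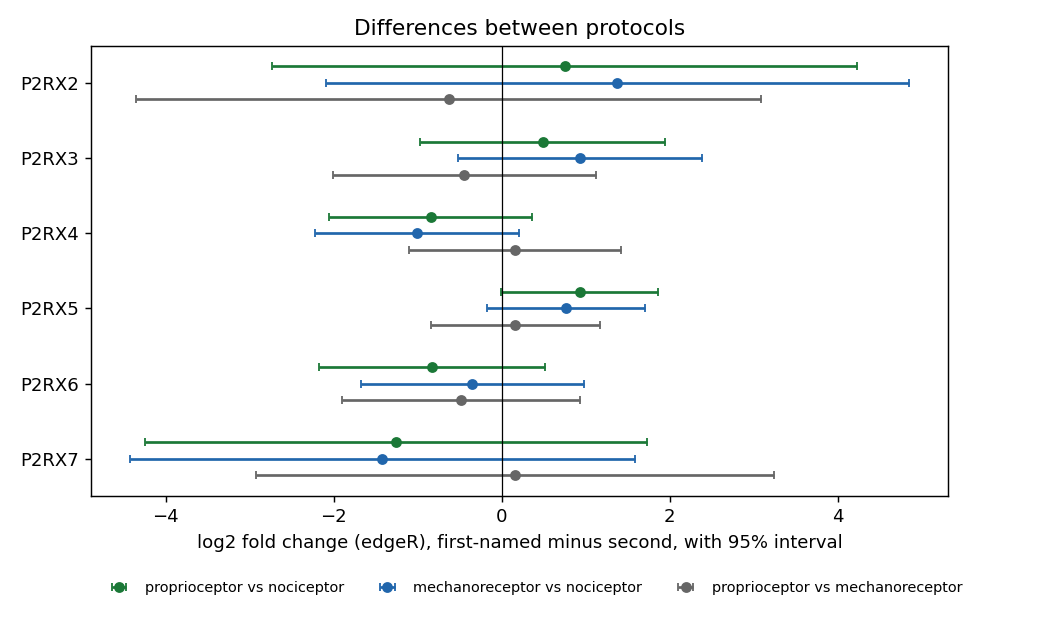
Log2 fold change from edgeR with its 95% interval for the 6 tested P2X genes in 3 comparisons, first-named protocol minus the second, with a vertical line at 0. All 18 intervals cross 0, the P2RX5 interval of proprioceptor against nociceptor libraries (-0.01 to 1.87) by the least, and those of P2RX2 and P2RX7 are the widest.

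The summed P2X level was 139, 296 and 549 TPM in proprioceptor libraries 1 to 3, 554, 502 and 322 TPM in mechanoreceptor libraries 1 to 3 and 236, 128, 201 and 483 TPM in nociceptor libraries 1 to 4. Its difference across protocols had an exact permutation p of 0.306 over 4200 groupings. P2RX3 made up 48.2%, 63.4% and 88.4% of that sum in proprioceptor, 84.4%, 80.1% and 70.3% in mechanoreceptor and 73.2%, 42.3%, 43.0% and 83.6% in nociceptor libraries (exact permutation p = 0.475). Proprioceptor library 1 differed in make-up from the rest, with 43.1% of the sum from P2RX5. In nociceptor libraries 2 and 3, P2RX4 and P2RX7 took most of the remainder.

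**Figure D5:**
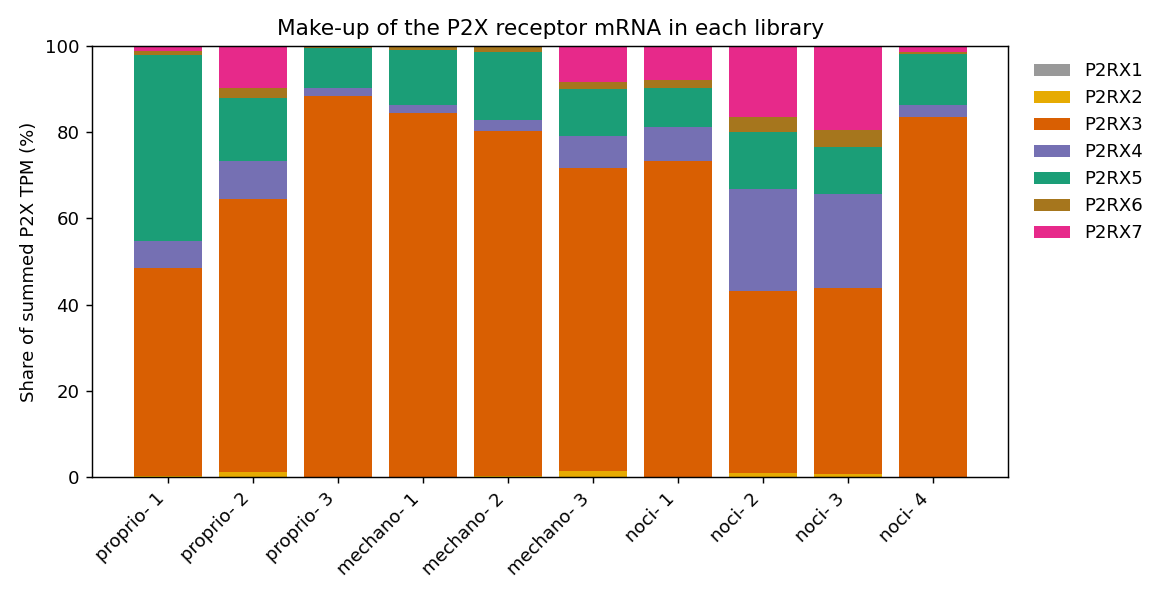
Share of each P2X gene in the summed P2X TPM (percent, stacked to 100) in each of the 10 libraries. P2RX3 holds 42.3% to 88.4%, and P2RX5 is widest in proprioceptor library 1 at 43.1%.

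The genes whose pattern was most like that of each P2X gene were ranked by Pearson's r of log2(TPM + 1) over the 10 libraries among 13935 genes, as a description in which all points share library, depth and cell make-up. P2RX3 was most like PRKCE (r = 0.99), a protein kinase C isoform, then TTC9 and CDYL2 (0.98 and 0.97). P2RX2 was most like GPR50 (0.98), then OPRM1 (0.97), the mu opioid receptor, and APCDD1 (0.96). For P2RX7 the genes were LAMB2, a laminin chain of basement membranes, MFGE8 and NFATC2 (r = 0.995, 0.995 and 0.993). For P2RX4 they were TGFB1I1, ARAF and ITGB4 (0.99 each), and P2RX4 and P2RX7 had an r of 0.91 with each other. P2RX5 was most like CCL3L3, PMS2P3 and GOT1 (0.97, 0.96 and 0.96), of which the first 2 have near-identical copies and are uncertain, and P2RX6 was most like VANGL1, MACROH2A1 and KCNG1 (0.95, 0.94 and 0.93).

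RefSeq promoters (GRCh38.p14, plus strand, 250 bases before to 50 after a gene start) were at hand for 3 of the 7 genes, and they are printed because P2RX7 and P2RX4, neighbours on chromosome 12, were high in the same 5 libraries. Capitals mark the E-box, CANNTG, and the GC box, GGGCGG, searched on both strands. The windows are chr11:57338102-57338401 for P2RX3, which lies inside the annotated span of the gene, chr12:121132626-121132925 for P2RX7 and chr12:121209879-121210178 for P2RX4.

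P2RX3: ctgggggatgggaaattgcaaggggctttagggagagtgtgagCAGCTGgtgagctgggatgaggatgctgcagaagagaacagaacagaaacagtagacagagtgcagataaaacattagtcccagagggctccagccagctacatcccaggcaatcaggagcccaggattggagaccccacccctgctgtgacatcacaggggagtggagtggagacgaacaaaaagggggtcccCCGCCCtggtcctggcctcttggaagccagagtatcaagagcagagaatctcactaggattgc

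P2RX7: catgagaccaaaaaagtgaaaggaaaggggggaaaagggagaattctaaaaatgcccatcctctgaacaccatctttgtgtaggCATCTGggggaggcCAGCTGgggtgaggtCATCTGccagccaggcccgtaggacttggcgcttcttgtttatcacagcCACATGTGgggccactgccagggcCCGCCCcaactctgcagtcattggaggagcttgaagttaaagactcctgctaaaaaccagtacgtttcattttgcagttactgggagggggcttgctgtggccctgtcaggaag

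P2RX4: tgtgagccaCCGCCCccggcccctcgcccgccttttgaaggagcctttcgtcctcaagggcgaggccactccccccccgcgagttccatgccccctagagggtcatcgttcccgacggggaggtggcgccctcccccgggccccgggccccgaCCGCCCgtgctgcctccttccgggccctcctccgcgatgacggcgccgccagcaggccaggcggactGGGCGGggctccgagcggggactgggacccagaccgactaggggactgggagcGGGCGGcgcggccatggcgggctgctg

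P2RX7 held 5 E-boxes, some overlapping, and 1 GC box, P2RX4 held 0 and 4, and P2RX3 held 1 of each. Of 35116 promoters of that length, 68.7% hold an E-box and 44.95% a GC box. The GC content was 53.3% for P2RX7, 76.0% for P2RX4 and 55.3% for P2RX3, beside a median of 58.7%. The RUNX core TGTGGT (13.1% of promoters), the TATA box TATAAA (11.5%) and the cyclic AMP element TGACGTCA (1.85%) had no match in the 3 windows, and the SOX core ACAANG (35.5%) had 1, in P2RX7. P2RX7 ends 22096 bases before P2RX4 starts.

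Of the other genes of ATP signalling, 0 passed edgeR's test or DESeq2's in any comparison. The P2Y list held 10 genes of G protein-coupled receptors, most but not all of them receptors for nucleotides. Of these 10 genes 7 were tested, and all 7 were below 0 between mechanoreceptor and nociceptor libraries (median log2 fold change -0.70). Between proprioceptor and nociceptor libraries 5 of 7 were below 0, and between proprioceptor and mechanoreceptor libraries 6 of 7 were above 0. P2RY1 had the highest mean, at 1.41, 4.41 and 12.8 TPM in proprioceptor, 1.58, 1.91 and 2.09 TPM in mechanoreceptor and 5.10, 2.47, 3.28 and 0.425 TPM in nociceptor libraries. P2RY11 was at 0.308 to 2.88 TPM. P2RY12, the receptor of platelets and microglia, had a log2 fold change of -2.30 ± 0.996 between mechanoreceptor and nociceptor libraries. P2RY14 was at 0, 0.196 and 0.232 TPM in mechanoreceptor libraries and at 4.95, 0.279, 0 and 0 TPM in nociceptor libraries, so its log2 fold change of -3.74 ± 2.19 rests on nociceptor library 1. P2Y levels were thus low beside P2RX3, with 6 of the 10 genes under 1 TPM in every library.

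Channels that release ATP had 7 of 9 genes tested, led by LRRC8A, a volume-regulated anion channel subunit, at 7.57 to 48.4 TPM and PANX1, pannexin 1, at 10.0 to 36.8 TPM. GJA1, connexin 43, had a log2 fold change of -2.12 ± 0.88 between mechanoreceptor and nociceptor libraries (edgeR adjusted p = 0.598). Of the enzymes that break down nucleotides outside the cell, 6 of 9 were tested. NT5E, the AMP-degrading CD73, was at 2.69, 18.6 and 1.36 TPM in proprioceptor, 2.23, 1.59 and 14.5 TPM in mechanoreceptor and 23.6, 53.1, 30.5 and 2.55 TPM in nociceptor libraries, high in the 5 libraries with a high glia level. Its log2 fold change was -2.39 ± 1.35 between proprioceptor and nociceptor libraries and -2.78 ± 1.38 between mechanoreceptor and nociceptor libraries (edgeR adjusted p = 0.665 and 0.598). Adenosine genes had 7 of 8 tested, with ADK, adenosine kinase, at 66.3 to 128 TPM and SLC29A1, a nucleoside transporter, at 32.8 to 115 TPM. ADA, adenosine deaminase, had a log2 fold change of -1.62 ± 0.77 and -1.66 ± 0.77 in the comparisons of proprioceptor and of mechanoreceptor with nociceptor libraries (edgeR adjusted p = 0.665 and 0.598). Low members of these lists were CALHM2, an ATP release channel gene, at 0.196 to 1.09 TPM and ENPP3 at 0.0250 to 0.522 TPM, while ADORA2A, an adenosine receptor, was at 0.287 to 19.7 TPM.

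Nociceptor genes that accompany P2RX3 in non-peptidergic neurons were uneven. Of 12 genes, 8 were tested and 0 passed either test, and SCN10A, MRGPRX1, MRGPRX3 and MRGPRD were below 1 TPM in every library. GFRA2, the neurturin co-receptor, was at 15.6, 215 and 95.2 TPM in proprioceptor, 22.9, 18.7 and 84.5 TPM in mechanoreceptor and 112, 109, 387 and 80.9 TPM in nociceptor libraries. RET, its signalling partner, was at 23.8 to 98.0 TPM. RUNX1, a transcription factor of the non-peptidergic lineage in mice, was at 1.83, 2.22 and 1.69 TPM in proprioceptor, 2.01, 1.86 and 4.04 TPM in mechanoreceptor and 11.8, 4.81, 5.92 and 3.58 TPM in nociceptor libraries. Its log2 fold change was -1.70 ± 0.47 between proprioceptor and nociceptor libraries (edgeR adjusted p = 0.665). LPAR3, a receptor for lysophosphatidic acid, was at 0.0144 to 1.17 TPM. Of 6 peptidergic genes, 5 were tested and 0 passed either test, and TAC1, the gene of substance P, was at 230.3, 738 and 53.6 TPM in proprioceptor, 39.8, 274 and 1129 TPM in mechanoreceptor and 1693, 1136, 381 and 215 TPM in nociceptor libraries. ADCYAP1, the gene of the peptide PACAP, was at 3.64 to 106 TPM, and CALCA, which encodes CGRP, at 0.0562 to 2.04 TPM.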

How the data were processed

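Bulk RNA-seq was measured in 10 libraries, grouped by the protocol in their titles. RNA was extracted with Trizol, cDNA came from the Clontech Ultra Low v4 chemistry and libraries from NexteraXT, per the labels' protocols, and this kit does not mark strand. Per the submitters' processing notes, kallisto 0.50.1 and GRCh38.p14 were used. The authors deposited estimated counts per gene and per transcript, in whole numbers. The authors also deposited TPM values per gene and per transcript, corrected for length. The sources used here do not give how transcripts were summed to genes. The series text names a droplet platform, whereas the files hold 1 column a library. An entry with a blank name took 0.733% to 1.66% of counts and was left out. Counting error is small beside the spread between libraries except for P2RX1 and P2RX2, and PCR reads are not independent molecules.

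Counts were tested with edgeR 4.0.16 in R 4.3.3: filterByExpr kept 16130 genes, TMM factors ran from 0.778 to 1.10, and the 10 libraries entered 1 quasi-likelihood model with 1 coefficient a protocol, with p-values adjusted by the Benjamini-Hochberg method over all genes at 0.05. The code was tested on simulated data with a smaller spread than these libraries show. That test does not give the power of the comparisons here. Intervals are 95%. DESeq2 1.42.0 and limma 3.58.1 were alternatives, with 17 settings in all and 1 more, the block on the paired protocols alone, chosen after seeing the data. Single values were compared across protocols by exact permutation tests over libraries. These counted the groupings with a between-protocol sum of squares at least as large as the one seen. The summed P2X level was tested on the log2 scale. Chi-square tests of the counts of all 45 pairs of libraries gave at least 26.4 per degree of freedom, so no pair differed by counting noise alone. Replicate numbers are in the labels, which do not say what they pair. The correlations of deviations from the protocol means were 0.36, 0.23 and 0.26 for same-numbered mechanoreceptor and nociceptor libraries. For differently numbered ones they were -0.34 to -0.05, so numbers 1 to 3 were taken to pair these protocols. The pairing was thus read from the same counts that the block was fitted to. Deviations within a protocol cancel out, so the negative values are no separate support. The numbers were not taken to pair the proprioceptor libraries, where same-numbered correlations ran from -0.63 to 0.19. Proprioceptor libraries 1, 2 and 3 correlated most with mechanoreceptor libraries 2, 3 and 1 (0.43, 0.79 and 0.46). Of nociceptor libraries 1 to 3, they correlated most with 2, 3 and 1 (0.38, 0.29 and 0.33). The 0.79 was the highest correlation of all. No fit used this shifted match, and the block over replicates 1 to 3 followed the numbers in the labels. Whether these libraries share a batch was not tested. Transcripts and exons came from GENCODE 29, gene positions and promoters from RefSeq (GRCh38.p14). The members and lists were chosen with earlier results of these data known. Beside the members, the text names, in each list of ATP signalling or nociceptor genes, the 2 genes with the highest mean TPM and the gene with the largest change in each comparison, for other lists mainly their most abundant genes, and for each member the 3 most alike genes and the transcripts with at least 10% of its TPM. SOX10 and the named macrophage genes other than CD68 and PTPRC were chosen after their values were seen.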

Additional observations from a re-analysis of the deposited data

Results flagged for a closer look

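Within the 4 nociceptor libraries, P2RX5 in library 4 stood far from the rest by Dixon's criterion at 95%, the gap to the nearest library over the range of the group, at 57.2 TPM against 16.8 to 22.2 TPM in the other 3. Pan-neuronal genes were also highest in that library, and their part in the value was not tested. P2RX1 reached 0.0411 TPM in nociceptor library 1, from 3 counts, and was at 0 in the other 3. That count is at the limit of detection. By that criterion chance sets apart about 1 in 20 groups of normally spread values, a rate that does not hold for the 3 zeros of P2RX1.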

How the results depend on the processing

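Under 17 other settings and 1 added after seeing the data, no P2X gene passed the threshold in any comparison: of 312 recomputed fold changes 0 passed, the smallest adjusted p was 0.061, and 22 changed sign, all of them values that had not passed. Over all genes DESeq2 called 31 between proprioceptor and nociceptor libraries, 130 between mechanoreceptor and nociceptor libraries and 79 across protocols, where edgeR called 0. With the mesenchyme level added to the fit, the log2 fold change was -0.11 for P2RX3, 0.056 for P2RX7 and 0.40 for P2RX5 between proprioceptor and nociceptor libraries and 0.67 for P2RX6 and 0.16 for P2RX5 between mechanoreceptor and nociceptor libraries. In limma on log2(TPM + 1) and on log2(TPM + 0.1), P2RX6 was at 0.22 and 0.28 between mechanoreceptor and nociceptor libraries. Between proprioceptor and mechanoreceptor libraries the same fits gave -0.12 and -0.14 for P2RX4 and -0.19 and -0.19 for P2RX5. Leaving out 1 library at a time gave, between proprioceptor and nociceptor libraries, -1.49 to 1.43 for P2RX2, -0.37 to 1.26 for P2RX3, -1.31 to -0.47 for P2RX4 and 0.39 to 1.31 for P2RX5. Between mechanoreceptor and nociceptor libraries it gave -0.24 to 2.06 for P2RX2, -1.59 to -0.63 for P2RX4, 0.45 to 1.15 for P2RX5 and -0.66 to 0.082 for P2RX6. In that comparison P2RX3 was at 0.64 to 1.70 and P2RX7 at -5.11 to -0.87. Between proprioceptor and mechanoreceptor libraries leaving out 1 library gave -2.85 to 0.99 for P2RX2, -0.26 to 0.73 for P2RX4, -0.34 to 0.43 for P2RX5 and -2.35 to 3.85 for P2RX7. The cause of these changes was not tested. A replicate block over replicates 1 to 3 called 0 P2X genes and 0 genes in all, and under the block P2RX2 was at 0.086 between proprioceptor and mechanoreceptor libraries. That block used the label numbers, which were not taken to pair the proprioceptor libraries. The added block on mechanoreceptor and nociceptor libraries 1 to 3 alone, which leaves out nociceptor library 4, also called 0 genes (smallest adjusted p 0.060, edgeR, 4653 of 15648 genes at an unadjusted p under 0.05), and gave 1.74 for P2RX3, -1.29 for P2RX4, 1.07 for P2RX5 and -3.75 for P2RX7 (adjusted p = 0.069, 0.061, 0.086 and 0.106). The block changed no call. P2RX1 and P2RX2 are limited by depth.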

Other observations

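ENTPD3, an enzyme that breaks down extracellular ATP, was at 47.6, 35.1 and 1.4998 TPM in the proprioceptor libraries, 12.3, 45.4 and 38.8 TPM in the mechanoreceptor libraries and 1.94, 21.4, 7.20 and 0.9747 TPM in nociceptor libraries 1 to 4. Its 3 lowest libraries were the 3 lowest for P2RX2 and for the autonomic gene TH. TH, the first enzyme of catecholamine synthesis, was at 12.95, 14.2 and 5.82 TPM in those 3 libraries and at 70.9 to 534 TPM in the other 7. The log2 fold change of ENTPD3 was 2.22 ± 1.24 between proprioceptor and nociceptor libraries and 1.84 ± 1.23 between mechanoreceptor and nociceptor libraries (edgeR adjusted p = 0.665 and 0.653), and neither passed. The part of autonomic neurons in these values was not tested.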
